A study of Mus musculus with 4 samples.

Results

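Tes, Cav2, Cav1, Met, Capza2 and St7 are 6 protein-coding genes that follow one another on mouse chromosome 6, in that order. They were taken by symbol from a table of 18061 RefSeq transcripts of 16545 gene symbols. Of the 6 genes, 5 have a row there and together hold 6 rows, since Cav2 is listed with 2 transcripts. Cav1 has no row in the table analysed here and gets no value. The genes were chosen with their means in both groups known, that is, selected on their deposited OHT and EtOH means, so that contrast is described for them and supports nothing by itself.

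RNA-seq was made from MLL-AF9 leukaemic cells, which carry an oncogene joining parts of MLL and AF9 and model a human myeloid leukaemia in the mouse. Cells were taken from the bone marrow of C57BL/6 mice, grown in liquid culture and treated for 72 h with OHT (2 samples) or with EtOH, ethanol (2 samples). OHT commonly stands for hydroxytamoxifen, which switches on the recombinases used to delete floxed alleles, but the labels name neither the recombinase nor its promoter. All cells, with OHT and with EtOH, carried the genotype Ring1a-/-, Ring1bf/f and Cdkn2a-/-. The sample titles call the OHT samples RingKO and do not call the EtOH samples so. Ring1b (Rnf2) and Ring1a (Ring1) encode the catalytic subunits of PRC1, a Polycomb complex that attaches ubiquitin to histone H2A at silenced genes. The series title asks what this complex does for the identity of the leukaemic cells. The labels do not state that the samples within a group are separate cultures or animals, so the spread between them may be technical. Cells with no floxed allele given OHT were not analysed here, so effects of OHT itself and of the deletion cannot be told apart.

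Met encodes the receptor tyrosine kinase for hepatocyte growth factor (HGF), which drives growth, motility and branching of epithelial and other cells. HGF is secreted as an inactive precursor and is cut by serine proteases, and the active receptor recruits adaptors such as GAB1 and GRB2 before CBL marks it for removal. Cav1 and Cav2 encode caveolins, membrane proteins that build caveolae, the small pits of the plasma membrane, together with cavins. CAV2 depends on CAV1 to reach the plasma membrane in most cells studied. Tes encodes testin, a LIM-domain protein of focal adhesions that binds zyxin. Capza2 encodes an alpha subunit of capping protein, which closes the growing ends of actin filaments, and St7 was described as a candidate tumour suppressor.

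The deposited means of each group could be resolved into whole reads of 2 libraries, called A and B here, which no file ties to the replicate numbers of the labels. The libraries held 5687967 and 4509718 reads with OHT, and 6255320 and 3841243 reads with EtOH. Levels below are normalised reads, the reads of a library divided by its size factor. Rnf2, whose floxed allele the design targets, stood at 716 and 797 normalised reads in OHT libraries A and B, against 687 and 583 in EtOH libraries A and B. Its deposited adjusted p was 1, so the transcript level does not show a deletion. Counts over the whole transcript cover exons outside a floxed part too, so this level is no check of the deleted part. Of the myeloid markers Ptprc, Spi1, Mpo, Elane, Lyz2, Itgam, Csf1r and Csf2rb, all 8 were measured. Their summed levels were 9973 and 10250 normalised reads with OHT and 6161 and 6113 with EtOH. Csf2rb alone gave 4870 and 6328 of these with OHT and 3976 and 3167 with EtOH. The groups overlapped for Ptprc, Spi1, Mpo and Elane, but not for Lyz2, Itgam, Csf1r and Csf2rb.

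Within the locus, Met and Cav2 were several-fold higher with OHT, Tes was 1.51-fold higher, and Capza2 and St7 had nearly equal means. Of the 6 rows, 2 (Met and one Cav2 transcript) had a higher OHT mean and passed 0.05 on the adjusted p of the authors' deposited table, and 0 had a lower one. At an unadjusted p under 0.05 these counts were 3 and 0. Over all rows of the table, 3.62% were called higher and 1.85% lower on the adjusted p, and 7.82% were higher and 6.64% lower at an unadjusted p under 0.05. A limma-voom fit to the resolved reads called the same 2 rows of the locus higher and 0 lower out of the 4 it could fit, where it called 9.72% of all fitted rows higher and 5.49% lower. In bulk samples, a change in the share of cells that express a gene and a change in RNA per cell cannot be told apart.

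Tes (NM_207176) stood at 1193 and 1211 normalised reads in OHT libraries A and B, against 862 and 728 in EtOH libraries A and B. Both OHT libraries lay above both EtOH libraries, as they did for 26.4% of all rows, while 24.6% of all rows had both OHT libraries below. The means were 1202 ± 12.6 normalised reads with OHT and 795 ± 95.2 with EtOH (SD, n = 2 each). The authors' deposited table lists a ratio of 1.51 at an adjusted p of 0.320. Limma-voom gave a log2 fold change of 0.60 ± 0.20 (SE). That fit called Tes only with upper-quartile scaling (adjusted p = 0.0426) or without EtOH library A (adjusted p = 0.0335).

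Cav2 (NM_016900) had 107 and 161 normalised reads in OHT libraries A and B, against 24.9 and 27.3 in EtOH libraries A and B. The groups did not overlap, and the OHT libraries differed more from each other than the EtOH libraries did. Its means were 134 ± 38.3 with OHT and 26.1 ± 1.74 with EtOH (SD, n = 2 each). The ratio in the authors' deposited table was 4.96, at an adjusted p of 0.000968. The log2 fold change in limma-voom was 2.29 ± 0.41 (SE), and between 2.02 and 2.61 when each library was left out in turn. The second Cav2 transcript, NM_001277756, had 0 and 1 read in the OHT libraries, against 1 and 0 in the EtOH libraries, too few for a ratio.

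Met (NM_008591) was the member with the largest ratio of the 5 measured genes. It had 364 and 377 normalised reads in OHT libraries A and B, against 69.7 and 41.7 in EtOH libraries A and B. The OHT libraries were close together and both stood far above the EtOH libraries. The means were 370.5 ± 9.67 with OHT and 55.7 ± 19.8 with EtOH (SD, n = 2 each). Met is listed with a ratio of 6.55 and an adjusted p of 1.1e-10 by the authors' deposited table. In limma-voom the log2 fold change was 2.72 ± 0.32 (SE). It was 2.40 without EtOH library B, the lower of the EtOH libraries, and 3.13 without EtOH library A.

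Capza2 (NM_007604), next to Met, had 1596 and 1669 normalised reads in OHT libraries A and B, against 1498 and 1536 in EtOH libraries A and B. The groups did not overlap, though the gap between them was smaller than the distance between the OHT libraries. The means were 1632 ± 51.8 with OHT and 1517 ± 26.8 with EtOH (SD, n = 2 each), and the authors' deposited table gives a ratio of 1.08 with an adjusted p of 1. The log2 fold change in limma-voom was 0.10 ± 0.19 (SE), with values from 0.07 to 0.14 when a library was left out. St7 (NM_022332) was represented by 7 and 0 reads in the OHT libraries, against 2 and 3 reads in the EtOH libraries. These groups overlapped, and a difference in this St7 transcript was not detectable with so few reads.

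**Figure D1:**
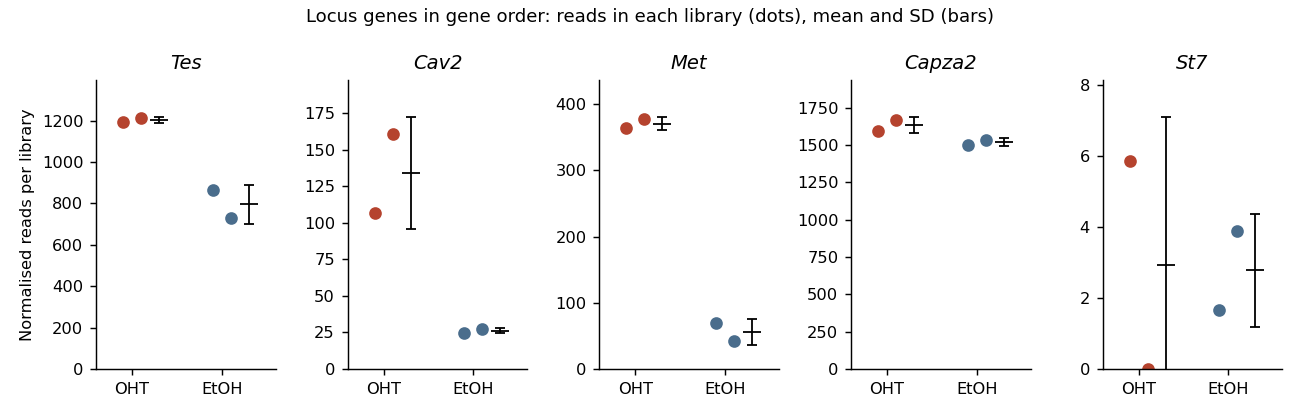
Normalised reads of the 5 measured genes, in gene order from left to right, with OHT left of EtOH in each panel. Dots are libraries (n = 2 per group), bars are the mean and SD, each panel has its own axis from 0, and for St7 the lower SD bar with OHT is clipped at 0. The 364 and 377 reads of Met with OHT lie far above 69.7 and 41.7 with EtOH, and the Capza2 dots lie close together.

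The share of sequence that a transcript has to itself differed between these genes. Tes, Met and Capza2 have 1 protein-coding RefSeq transcript each, whose sequence is not shared with another transcript of the gene. For Cav2, 87.9% of the 50-base stretches of NM_016900 do not occur in the other Cav2 transcript. St7 has 7 such transcripts, and 2.2% of the 50-base stretches of NM_022332, 49 of them, are its own. The other 6 have no row in the table. For Cav1 the share of own stretches was 13.6% in NM_001243064 and 5.8% in NM_007616, and both have no row, for a reason not known. How reads shared by several transcripts were counted is not given, so the low St7 reads cannot be taken as the gene's total expression.

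Per kilobase of transcript, the levels spanned a wide range along the locus. With OHT, the mean was 643 ± 20.4 normalised reads per kilobase for Capza2 and 493 ± 5.17 for Tes (SD, n = 2 each). Met at 54.4 ± 1.42 and Cav2 at 48.9 ± 14.0 followed, and their libraries overlapped. With EtOH, the order began alike, with Capza2 at 598 ± 10.6 and Tes at 326 ± 39.0 normalised reads per kilobase (SD, n = 2 each). Cav2 at 9.55 ± 0.638 and Met at 8.17 ± 2.91 followed there, again with overlapping libraries. The 1 listed St7 transcript was lowest, at 1.28 ± 1.82 per kilobase with OHT and 1.22 ± 0.695 with EtOH, which does not place the gene's total level. Met and Cav2 thus stood near each other in level in each group, well below their neighbours Tes and Capza2.

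The promoters of the locus were read from RefSeq's promoter table on build GRCm38.p6, which is not the mm9 build of the deposited values. The 250 bases before the start of Cav2, Met, Tes and Capza2 are shown, since the first pair was called higher and the second pair was not. All are on the plus strand, and capitals mark TGACTCA or its reverse complement TGAGTCA, the heptamer to which AP-1 factors bind. It was picked after these sequences had been read.
Cav2, chr6:17280935-17281184: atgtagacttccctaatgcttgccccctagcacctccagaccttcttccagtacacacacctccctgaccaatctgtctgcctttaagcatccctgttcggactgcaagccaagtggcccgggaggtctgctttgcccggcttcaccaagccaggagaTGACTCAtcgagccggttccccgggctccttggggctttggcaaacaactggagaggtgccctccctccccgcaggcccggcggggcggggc
Met, chr6:17463707-17463956: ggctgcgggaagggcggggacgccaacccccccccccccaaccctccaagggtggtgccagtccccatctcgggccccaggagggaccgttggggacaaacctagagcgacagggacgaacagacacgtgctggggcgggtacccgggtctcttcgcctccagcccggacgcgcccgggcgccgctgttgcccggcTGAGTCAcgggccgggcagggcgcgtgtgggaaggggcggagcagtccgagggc
Tes, chr6:17064899-17065148: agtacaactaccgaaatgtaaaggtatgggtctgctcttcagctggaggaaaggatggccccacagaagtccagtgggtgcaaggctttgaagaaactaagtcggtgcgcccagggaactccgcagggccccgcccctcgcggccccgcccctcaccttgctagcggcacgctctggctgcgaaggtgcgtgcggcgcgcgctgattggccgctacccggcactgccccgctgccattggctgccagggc
Capza2, chr6:17636760-17637009: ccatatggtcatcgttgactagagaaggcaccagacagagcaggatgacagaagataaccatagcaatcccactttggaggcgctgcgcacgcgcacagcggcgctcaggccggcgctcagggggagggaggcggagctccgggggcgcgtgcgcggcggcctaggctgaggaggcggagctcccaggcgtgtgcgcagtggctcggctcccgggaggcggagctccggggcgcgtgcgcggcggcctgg
The Cav2 sequence holds TGACTCA at -92 and the Met sequence holds TGAGTCA at -54, counted to the first base from the start of the gene. Over windows of 300 bases, from 250 before to 50 after the start, 1 or more copies on either strand occurred in 5.20% of 32851 RefSeq promoters. The windows of Tes, Capza2, Cav1 and St7 do not hold these letters. These are letter matches, and no binding was measured here.

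CpG dinucleotides, at which promoters of the CpG-island class are rich, numbered 34 in the Met window and 16 in the Cav2 window. The Capza2 window had 38 and the Tes window 24, against a median of 7 over all promoters. As many CpGs as in Met were found in 7.73% of promoters, and as many as in Cav2 in 33.0%. The GC content was 75.7% for Met, 64.3% for Cav2, 73.0% for Capza2 and 64.7% for Tes, with a median of 52.7% over all promoters. The letters GGGCGG, on either strand, occurred in all 4 of these windows and in 35.7% of all promoters. The letters TATAAA were in none of the 4 and in 13.6% of all promoters. CpG content therefore did not separate the called pair from Tes and Capza2.

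In gene order, both called genes were next to each other among measured genes, with Tes before them and Capza2 after them. RefSeq lists 12 genes from Tes to St7, of which 6 are protein-coding. Of the 8 measured genes before Tes and the 8 after St7, 0 passed 0.05 on the adjusted p of the authors' deposited table. At an unadjusted p under 0.05, 3 were higher and 0 lower with OHT, and limma-voom called 0 of the 11 it could fit. Over all rows, 7.82% were higher and 6.64% lower at an unadjusted p under 0.05, and limma-voom called 9.72% higher and 5.49% lower. The median of their deposited log2 ratios was 0.55, with 11 of 16 above 0, beside 0.04 and 51.6% over all symbols. Several of these ratios rest on very few reads. Gpr85 and Wnt2, both above 0, and Gm6578, below 0, had at most 3 reads in each group. Cttnbp2, above 0, had 3 and 1 reads with OHT and 1 and 1 with EtOH. Tspan12, also above 0, had 5 and 7 reads with OHT and 2 and 1 with EtOH.

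Tfec, which encodes a transcription factor of the MiT family, is the measured gene just before Tes. It had 809 and 343 normalised reads in OHT libraries A and B, against 194 and 327 in EtOH libraries A and B. OHT library B and EtOH library B were almost equal, and the authors' deposited table gives Tfec an adjusted p of 0.616. Mdfic, named for a MyoD family inhibitor domain, precedes Tfec. It had 380.5 and 363 normalised reads in the OHT libraries and 250.4 and 151 in the EtOH libraries. Its groups did not overlap, and its adjusted p was 0.128 in the authors' deposited table.

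After St7 comes Wnt2, a secreted ligand, with 0 and 3 reads in the OHT libraries and none in the EtOH libraries. Cftr, the chloride channel gene mutated in cystic fibrosis, had 19 and 6 reads with OHT and 30 and 43 with EtOH. Its OHT libraries lay below its EtOH libraries, and its adjusted p in the authors' deposited table was 0.529. Of the others, Tmem106b, Bmt2 (listed as B630005N14Rik), Cped1, Tspan12, Fam3c, Tmem168 and Cttnbp2 had higher OHT means, and Lsm8 (listed as Naa38), Ing3 and 1110019D14Rik had lower ones, all without a call. Of 1110019D14Rik there were 29 and 24 reads with OHT, against 48 and 33 with EtOH. Gm6578 and Gpr85 had at most 3 reads in each group.

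For scale, 322 of the 16258 runs of 5 consecutive measured genes over all chromosomes (1.98%), as many as the locus has with a row, held at least 2 genes called higher. Of runs of 6 genes, the number named for the locus, 448 of 16238 (2.76%) did. Adjacent measured genes were both called higher in 55 of 16320 pairs (0.337%). Single genes were called higher in 3.96% of 16341 genes placed in RefSeq order. Runs overlap each other, so these shares describe the table and are no test of the locus.

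**Figure D2:**
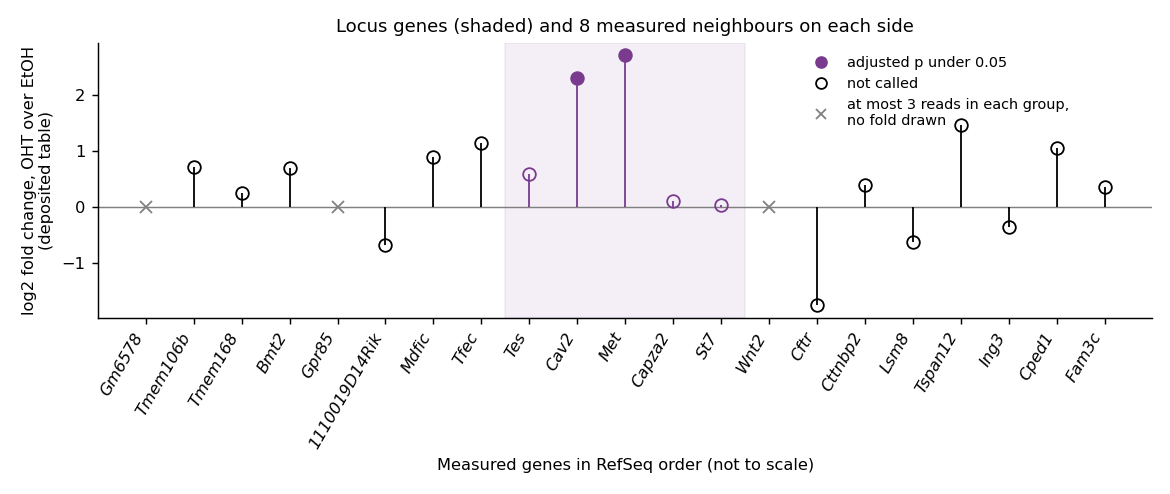
Deposited log2 ratio of OHT to EtOH for the 5 measured locus genes (shaded) and the 8 measured genes on each side, in RefSeq order and not to scale. Filled points have an adjusted p under 0.05, open points do not, and crosses mark genes with at most 3 reads in each group, for which no ratio is drawn. Cav2 at 2.31 and Met at 2.71 are the only filled points of the 21 genes shown.

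The ligand side, the receptors, the adaptors and the negative controls of MET signalling were described with a list of 35 genes that includes Met. Of these, 34 were measured and Src had no row. By the authors' deposited table, 6 were called higher and 0 lower, and 8 were higher and 0 lower at an unadjusted p under 0.05. Over all symbols, 3.94% were called higher and 2.02% lower, and at an unadjusted p under 0.05 the shares over all rows were 7.82% and 6.64%. The list's median log2 ratio was 0.32, with 29 of 34 above 0, beside a median of 0.04 and 51.6% above 0 over all symbols. Of those above 0, Hpn, Rapgef1, Dab2ip and Stat3 had at most 3 reads in each group. With genes at that floor left out, the medians were 0.27 for the list and -0.0063 over all symbols. Met is among the 6 called genes and was itself chosen on these values.

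Of 4 measured receptors and partners, Met, Mst1r and Plxnb1 were called higher, and Met was itself chosen on these values. Over all symbols, 3.94% were called higher and 2.02% lower, for this role and those that follow. The roles divide a list that was written with earlier results of these data known. Mst1r encodes RON, the closest relative of MET and the receptor for macrophage-stimulating protein. It had 52.1 and 65.9 normalised reads in the OHT libraries, against 12.4 and 14.3 in the EtOH libraries. The groups were well apart, and the authors' deposited table gives a ratio of 4.15 with an adjusted p of 0.0121. Plxnb1, a semaphorin receptor that associates with MET, had 52.1 and 88.2 normalised reads with OHT, against 4.15 and 7.81 with EtOH. Its ratio of 10.1, with an adjusted p of 0.00143 by the authors' deposited table, was the largest of those called in the list. Cd44, a co-receptor, was represented by 4 and 11 reads with OHT, against 3 and 0 with EtOH, and was not called.

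Of 7 measured genes for the ligands and the control of their activation, 2 were called higher, 1 for a protease and 1 for an inhibitor. St14 encodes matriptase, a protease that cuts the HGF precursor. It had 1274 and 1740 normalised reads in OHT libraries A and B, against 748 and 721 in EtOH libraries A and B, and an adjusted p of 0.0284 by the authors' deposited table. Without OHT library B, its log2 fold change in limma-voom was 0.79 and the call was lost (adjusted p = 0.106). Spint1 encodes HAI-1, an inhibitor of matriptase and of the HGF activator. It had 1545 and 1363 normalised reads with OHT, against 554 and 329 with EtOH, with a ratio of 3.29 and an adjusted p of 2.2e-06 by the authors' deposited table. Both OHT libraries were far above both EtOH libraries.

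Hgf itself, the MET ligand, had 443 and 1462 normalised reads in OHT libraries A and B, against 1225 and 487 in EtOH libraries A and B. The libraries of each group lay far apart and the groups overlapped fully, with an adjusted p of 1 by the authors' deposited table. Mst1, the ligand of RON, had 290 and 343 normalised reads with OHT, against 407 and 318 with EtOH, and overlapped too. Hgfac, the HGF activator, had 29 and 35 reads with OHT, against 17 and 21 with EtOH, and was not called.

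Of the 14 measured adaptors and effectors, 0 were called in the authors' deposited table, and their median log2 ratio was 0.10. Grb2 had 1612 and 1675 normalised reads with OHT, against 1725 and 1820 with EtOH. Gab1, the main docking protein of MET, had 176 and 99.4 normalised reads with OHT, against 47.3 and 31.2 with EtOH. The groups did not overlap, and its adjusted p was 0.108 in the authors' deposited table. Limma-voom called Gab1 (log2 fold change 1.76 ± 0.42 SE, adjusted p = 0.0219), and lost the call without OHT library A (adjusted p = 0.144) or EtOH library B (adjusted p = 0.0524). Hgf, Mst1, Hgfac, Cd44, Grb2, Gab1 and Ptpn1 were named after their values had been seen.

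Of the 9 measured genes for removal and negative control, 1 was called, and the inhibitor gene Spint1 is counted with the ligands instead. Ptprj encodes DEP-1, a phosphatase that removes phosphate from MET. It had 636 and 382 normalised reads in OHT libraries A and B, against 143 and 156 in EtOH libraries A and B, and an adjusted p of 0.0397 by the authors' deposited table. The phosphatase PTP1B, encoded by Ptpn1, had 2725 and 1805 normalised reads with OHT, against 1280 and 1064 with EtOH. The authors' deposited table lists it at an adjusted p of 0.191. Limma-voom called it (adjusted p = 0.0298), but not without OHT library A (adjusted p = 0.315) or EtOH library B (adjusted p = 0.0737).

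**Figure D3:**
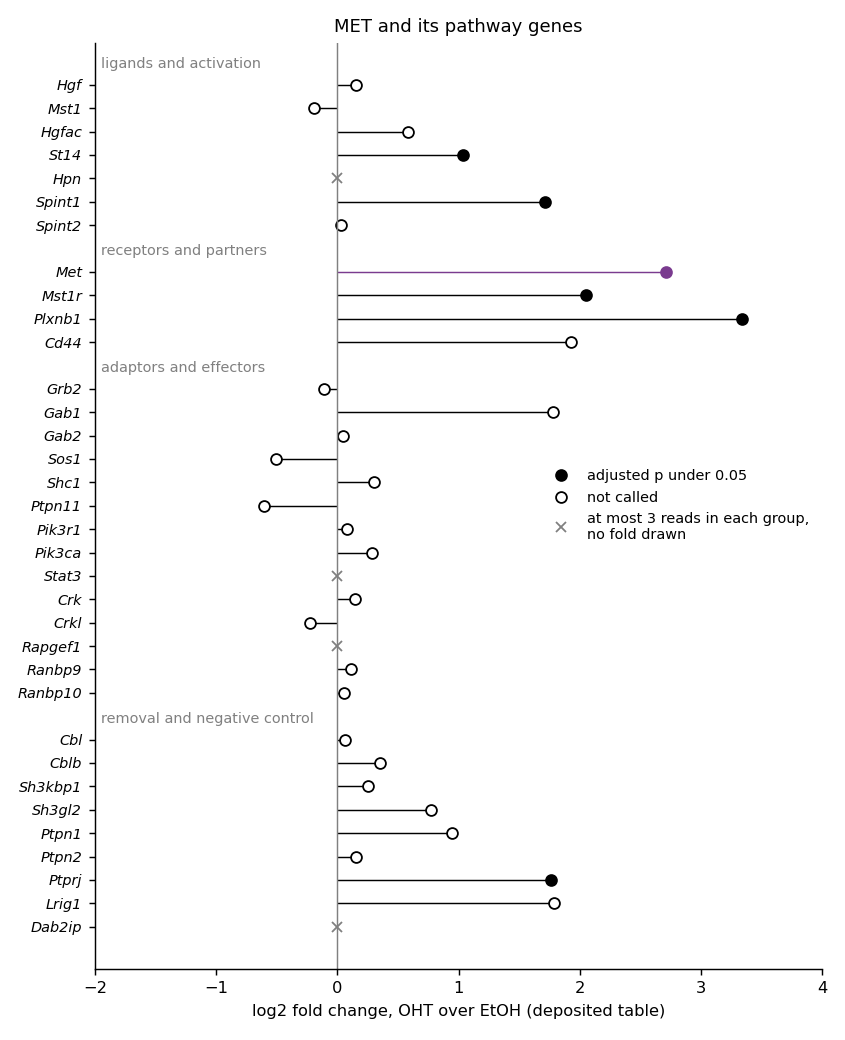
Deposited log2 ratio of OHT to EtOH for the 34 measured genes of the MET list, by role. Filled points have an adjusted p under 0.05, open points do not, crosses mark genes with at most 3 reads in each group, and Met is in purple. The 6 filled points all lie right of 0, while the 14 adaptors and effectors hold none. The ligand and activation group includes Spint1, which encodes an inhibitor.

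Caveola genes were described with a list of 19, of which 12 were measured. Cav2 was the 1 gene called higher in the authors' deposited table, and 0 were called lower. At an unadjusted p under 0.05, 3 were higher and 0 lower. The shares called higher were 3.94% of all symbols on the adjusted p and 7.82% of all rows on the unadjusted p, and Cav2 was itself chosen on these values. All 12 had log2 ratios above 0, with a median of 0.99, beside a median of 0.04 and 51.6% above 0 over all symbols. Some of these ratios rest on few reads. Pacsin3 had 4 and 3 reads with OHT and 0 and 0 with EtOH. Flot2 had 11 and 2 with OHT and 1 and 1 with EtOH, and Nos3 had 6 and 5 against 4 and 3. For Flot1, Dnm2 and Fyn the groups overlapped. Ehd2, an ATPase at the neck of caveolae, had 42.0 and 88.2 normalised reads with OHT, against 8.29 and 3.91 with EtOH. Its ratio was 9.22 with an adjusted p of 0.0725 by the authors' deposited table, and limma-voom called it at a log2 fold change of 3.18 ± 0.67 (SE, adjusted p = 0.0134).

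Ptrf, the gene of cavin-1, which coats caveolae, had 87.3 and 171 normalised reads in OHT libraries A and B, against 28.2 and 58.6 in EtOH libraries A and B. The groups did not overlap, and the adjusted p was 0.316 in the authors' deposited table. Limma-voom called Ptrf (adjusted p = 0.0460), but not without OHT library B (adjusted p = 0.167) or EtOH library A (adjusted p = 0.172). The flotillin gene Flot1, whose product marks other membrane domains, had 1123 and 1371 normalised reads with OHT, against 1264 and 1079 with EtOH, and overlapped. Ehd2, Ptrf, Flot1, Pacsin3, Flot2, Nos3, Dnm2 and Fyn were named after their values had been seen.

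Capping protein and its regulators were described with a list of 17 that includes Capza2. Of 16 measured, 0 were called in the authors' deposited table. At an unadjusted p under 0.05, 3 were higher and 1 lower, and limma-voom called 2 higher and 1 lower. The shares over all rows were 7.82% higher and 6.64% lower at an unadjusted p under 0.05, and 9.72% and 5.49% in limma-voom. Capza1, the gene of the other widely expressed alpha subunit, had 2602 and 3028 normalised reads with OHT, against 2576 and 2943 with EtOH. Mtpn, which encodes an inhibitor of capping protein, had 2148 and 2663 with OHT, against 2259 and 2146 with EtOH. Neither gene's groups were apart.

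The genes that limma-voom called on this list all encode regulators that bind capping protein, and they were named after their values had been seen. Lrrc16a (CARMIL1) had 36.1 and 46.9 normalised reads with OHT, against 11.6 and 6.51 with EtOH. Plekho1 (CKIP-1) had 613 and 592 with OHT, against 331 and 352 with EtOH. Rltpr (CARMIL2) went the other way, with 114 and 89.3 normalised reads with OHT, against 254 and 552 with EtOH. The adjusted p was 0.0571 for Lrrc16a, 0.0821 for Plekho1 and 0.328 for Rltpr in the authors' deposited table. In limma-voom Lrrc16a was no longer called without OHT library B or EtOH library B, nor Plekho1 without OHT library A or OHT library B.

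Zyxin-family proteins and other focal adhesion partners of testin were described with a list of 19 that includes Tes. Of 18 measured, 1 was called higher and 0 lower in the authors' deposited table, and at an unadjusted p under 0.05 the counts were 2 and 0. By the same rules 3.94% of all symbols were called higher, and 7.82% of all rows were higher at an unadjusted p under 0.05. The called gene was Actn1, for the actin cross-linker alpha-actinin-1. It had 1446 and 1203 normalised reads in the OHT libraries, against 625 and 668 in the EtOH libraries. The groups were clearly apart, with a ratio of 2.05 and an adjusted p of 0.00656 by the authors' deposited table. Limma-voom lost this call without OHT library A (log2 fold change 0.90, adjusted p = 0.101). Zyx, named after its values had been seen, had 1513 and 1533 normalised reads with OHT, against 1531 and 1178 with EtOH, and its groups overlapped.

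**Figure D4:**
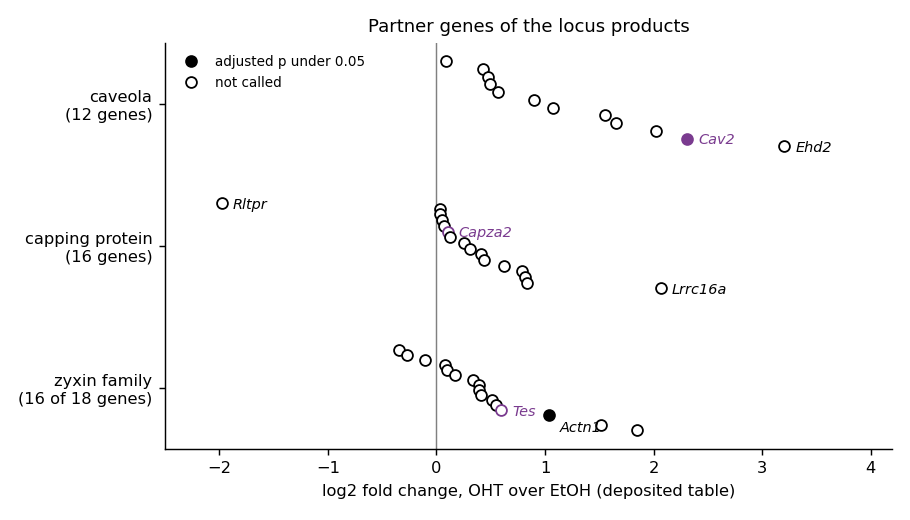
Deposited log2 ratio of OHT to EtOH for the measured genes of the caveola, capping protein and zyxin-family lists, 1 point per gene, spread vertically in order of the ratio. Filled points have an adjusted p under 0.05, locus genes are in purple, and 2 zyxin-family genes with at most 3 reads in each group are not drawn. All 12 caveola genes lie right of 0, some of them on few reads, and Cav2 and Actn1 are the only filled points.

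Met and Cav2 are also expressed by epithelial, endothelial and stromal cells, so markers of such cells were read beside them. The epithelial markers Epcam, Krt8, Krt18, Krt19 and Cdh1 summed to 774 and 1429 normalised reads in the OHT libraries, against 285 and 269.5 in the EtOH libraries. All 5 had higher OHT means, 3 were higher at an unadjusted p under 0.05, and limma-voom called Epcam, Krt18 and Cdh1. Of the 5, Cdh1, the E-cadherin gene, was called higher, with 438 and 727 normalised reads with OHT and 169 and 102 with EtOH, and an adjusted p of 0.0400 by the authors' deposited table. The 4 measured fibroblast markers summed to 34.4 and 30.1 normalised reads with OHT, against 3.32 and 9.11 with EtOH. Col1a1 alone of them was called, also at an unadjusted p under 0.05 and in limma-voom, and Col1a2 had 0 reads in both OHT libraries. For comparison, 51.6% of all symbols had log2 ratios above 0, and 3.94% were called higher on the adjusted p. Of all rows, 7.82% were higher at an unadjusted p under 0.05, and limma-voom called 9.72% of fitted rows higher.

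The 5 measured endothelial markers summed to 230 and 414 normalised reads with OHT, against 177.5 and 50.8 with EtOH, mostly from Vwf, and 0 were called in the authors' deposited table, also at an unadjusted p under 0.05 (0 in either direction). Limma-voom called 1 of them. Cdh5 and Cldn5 had 0 reads in both OHT libraries, while Kdr had 14 and 3 reads with OHT, against 0 and 0 with EtOH. Macrophage markers Emr1, Cd68, Mrc1 and Csf1r summed to 4682 and 5282 normalised reads with OHT, against 2623 and 978 with EtOH, with 0 of 4 called in the authors' deposited table, 3 higher at an unadjusted p under 0.05, and 2 called by limma-voom. The megakaryocyte markers summed to 921 and 2092 with OHT, against 1244 and 659 with EtOH, mostly from Itga2b. Of these 4 markers, Pf4 was called higher. At an unadjusted p under 0.05, 1 of them was higher, and limma-voom called 2. Of the 8 myeloid markers Lyz2 was called higher, 3 were higher at an unadjusted p under 0.05, and limma-voom called 2. Over all symbols 3.94% were called higher. Of all rows 7.82% were higher at an unadjusted p under 0.05, and limma-voom called 9.72% of fitted rows higher. The part of any of these markers in the values of Met and Cav2 was not tested.

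The genes with the pattern most like Met and Cav2 were found by Euclidean distance over log2(normalised reads + 1) of the 4 libraries, which includes the OHT contrast that chose them. For Met these were Fmnl2 (distance 0.204), a formin gene, Tlr7 (0.463), an innate receptor gene for single-stranded RNA, and Sbf2 (0.485). Fmnl2 had 347 and 356 normalised reads with OHT, against 72.1 and 46.9 with EtOH. For Cav2 they were Tcf7 (0.379), a Wnt-pathway transcription factor gene, Vash1 (0.445) and Cxxc5 (0.479). Tcf7 had 90.7 and 138 normalised reads with OHT, against 23.2 and 31.2 with EtOH. Of these 6 genes, Cxxc5 was not called in the authors' deposited table (adjusted p = 0.211) and the other 5 were called higher.

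**Figure D5:**
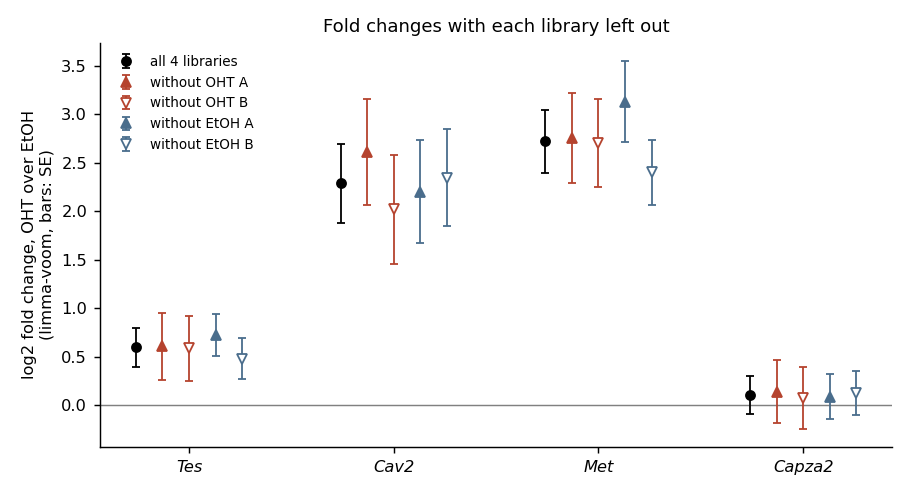
Log2 fold change of OHT over EtOH from limma-voom for the 4 locus genes it could fit, with all 4 libraries (black) and without each library in turn. Points are estimates and bars are standard errors. Met stays between 2.40 and 3.13 and Cav2 between 2.02 and 2.61, while Tes lies between 0.48 and 0.72 and Capza2 near 0.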

How the data were processed

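The data are 4 RNA-seq libraries, 2 of cells treated with OHT and 2 with EtOH, prepared with Illumina's TruSeq RNA v2 chemistry according to the labels. Strand is not kept by it, so antisense or overlapping genes cannot be told apart. TopHat, DESeq and build mm9 appear in the submitters' processing notes. The counting program and its settings are not given in the sources used here.

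The table is the authors' comparison between OHT and EtOH. Per the file headers, its signal columns are the base means of the 2 groups. The deposited ratio column is the fold of OHT over EtOH, and the deposited log2 column is its log2. Deposited p-values come raw and adjusted, and Benjamini-Hochberg adjustment of the raw ones over all 18061 rows gave the adjusted ones to within 2.63e-06. A call is a deposited adjusted p under 0.05. The table has 0 columns of samples outside the series.

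Each group mean was resolved into whole reads of 2 libraries plus 1 read per library, divided by size factors of 1.191 and 0.896 for OHT and 1.206 and 0.768 for EtOH. The solution was unique for 100% of rows. After a shift of each mean by at most 0.1%, 0.122% of OHT and 0.0941% of EtOH means still solved, and 100% of 2000 simulated means per group were recovered. Limma 3.58.1 (voom, R 4.3.3) was fitted by group to the 11338 rows with at least 10 reads in 2 libraries, with 2 residual degrees of freedom and Benjamini-Hochberg adjustment. It called 9.72% of rows higher and 5.49% lower. Reads were also simulated, with the same dispersion of 0.05 for every row, and 11088 rows were fitted. There 2% of 50 changes of 1.5-fold, 22% of 2-fold, 96% of 4-fold and 100% of 8-fold ones were recovered. Of 115 calls, 5 were false. These shares need not hold for genes that vary more between libraries. When a library is left out, the lone library of that group is assumed to vary like the other group. At most 3 reads per group is taken as the floor.

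A gene with several rows is represented in the lists by the row with the highest mean. Of the rows, 98.6% matched RefSeq genes, used for gene order and, on GRCm38.p6, for promoters. Transcript sequences for the 50-base stretches came from GENCODE M21. All genes of the locus had a promoter entry, 9 entries in all.

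The members and gene lists were chosen with earlier results of these data known. The named genes are the members, Rnf2, the genes within 8 measured neighbours, up to 6 called genes of each list or else its 2 most abundant, and the 3 nearest patterns of each called member. Ring1, also in that rule, had 149 and 93.8 normalised reads with OHT and 49.8 and 84.6 with EtOH, and Cdkn2a (NM_009877) had deposited means of 48.5 with OHT and 49.8 with EtOH. Neither was called.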

Additional observations from a re-analysis of the deposited data

How the results depend on the processing

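Across the alternatives that give a call (limma-voom, 3 other scalings, no filter, each library left out, other thresholds, and 1 transcript per symbol), Met and Cav2 were called higher and 0 members lower. Tes passed the threshold with upper-quartile scaling (0.68 on the log2 scale) and without EtOH library A, with a range of 0.48 to 0.72 over the libraries left out. Adding 10 to the deposited means gave Cav2 a log2 ratio of 1.96.

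Counts of list members moved more. Limma-voom with all libraries called 9.72% of all fitted rows higher and 5.49% lower. The authors' deposited table called 3.94% and 2.02% of all symbols. Of the fits with a library left out, that without EtOH library A called the most rows higher. The largest numbers of list genes called higher given below come from that fit too. With limma-voom, caveola genes called higher numbered 3, and 2 to 4 with a library left out, against 1 in the authors' deposited table. Capping genes called higher numbered 2, and 0 to 4 with a library left out, and 1 was called lower with all libraries and without each in turn, against 0 and 0. Zyxin-family genes called higher ran from 0 (without OHT library A) to 3 (without EtOH library A), against 1. MET-list genes called higher numbered 8, and 6 to 9 with a library left out, against 6, and genes called lower ran from 0 to 1, the 1 being Sos1 without EtOH library B. Without the filter, the log2 value of St7 in limma-voom was -0.60, against 0.03 in the authors' deposited table, and the second Cav2 transcript, with 1 read per group, changed sign too. No other log2 value of a locus gene changed sign. The cause of these differences was not tested.

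No paired analysis was possible because the resolved libraries carry no replicate numbers. With 2 samples a group, changes under 2-fold were rarely recovered on reads simulated with a dispersion of 0.05 for every row. St7 rests on 12 reads in all.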

Other observations

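Hgf and 3 lineage marker genes outside the MET list differed more between the libraries of a group than between the groups. Hgf had 443 normalised reads in OHT library A and 1462 in OHT library B, with 1225 in EtOH library A and 487 in EtOH library B. Itga2b, the integrin gene of the megakaryocyte lineage, had 628 and 1838 in OHT libraries A and B, with 1169 and 616 in EtOH libraries A and B. Both were thus high in OHT library B and EtOH library A. Elane, the neutrophil elastase gene, ran the opposite way, with 504 and 160 in OHT libraries A and B and 110 and 527 in EtOH libraries A and B. Mpo, the myeloperoxidase gene, did likewise, with 351 and 50.2 in the OHT libraries and 18.2 and 160 in the EtOH libraries. These genes were picked after their values had been seen, and not every marker of their lists split so. Pf4 of the megakaryocyte list had 249 and 222 with OHT and 52.2 and 28.65 with EtOH. Lyz2 of the myeloid list had 1232 and 1418 with OHT and 509 and 587 with EtOH. Met, with 364 and 377 in the OHT libraries and 69.7 and 41.7 in the EtOH libraries, did not show such a split within the OHT group. Its EtOH library A was above EtOH library B, as for Hgf and Itga2b. Cav2 was higher in OHT library B, with 107 and 161 in OHT libraries A and B, and had 24.9 and 27.3 in the EtOH libraries.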
